A study of Mus musculus with 15 samples.

Results

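Tbx22, Mn1, Shox2, Barx1, Meox2 and Hand2 are 6 genes for regulators of transcription that mark a region of the palatal shelves or are needed for the shelves to close. They were chosen by name, and they are 6 of the 54232 genes in the count table. All 6 passed the filter on low counts and were among the 22151 genes tested, and none was at or under 3 counts in any library. Secondary palates were taken from wild-type mice, either embryos at embryonic day (E) 13.5, 14.5, 15.5 or 16.5 or newborns (P0). Each of the 5 stages had 3 libraries of bulk RNA, and each library pooled the tissue of 3 embryos, a word the labels use for every stage. The labels give no mutant allele and no treatment for these groups, and they name neither the sex of the animals nor a position along the shelf. A pool of whole shelves averages over anterior and posterior tissue, so a regional gene was measured here as its mean over the organ. In bulk RNA, fewer cells of a type and less RNA per cell cannot be told apart.

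The secondary palate grows as a pair of shelves from the maxillary processes, which rise above the tongue, meet at the midline and fuse, and then form bone and muscle. Along this organ the mesenchyme is regional: Shox2, a homeodomain factor, marks the anterior shelf, while the homeodomain factors Barx1 and Meox2 and the T-box repressor Tbx22 mark more posterior tissue. Mn1, a transcriptional co-regulator, acts upstream of Tbx22 in the mouse palate, and TBX22 is the gene of human X-linked cleft palate with tongue-tie. Hand2 is a basic helix-loop-helix (bHLH) factor that endothelin signalling switches on in the lower jaw arch, and it also acts in heart, limb and sympathetic neurons.

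Barx1, Meox2 and Shox2 bind DNA through a homeodomain, and their coding sequences are shown because Shox2 changed over the stages in the test used here, and these other factors of the same fold did not pass it. Each homeobox below is 180 coding bases read 5′ to 3′ from the GENCODE M21 transcript on GRCm38, and capitals mark the 51 bases that code for the recognition helix, which lies in the major groove of DNA. The Barx1 homeobox lies on 3 exons between bases 48665226 and 48665830 of chromosome 13 (plus strand). The Meox2 homeobox lies on 2 exons between bases 37167357 and 37178200 of chromosome 12 (plus strand), and that of Shox2 on 2 exons between bases 66975869 and 66978323 of chromosome 3 (minus strand).
Barx1 homeobox: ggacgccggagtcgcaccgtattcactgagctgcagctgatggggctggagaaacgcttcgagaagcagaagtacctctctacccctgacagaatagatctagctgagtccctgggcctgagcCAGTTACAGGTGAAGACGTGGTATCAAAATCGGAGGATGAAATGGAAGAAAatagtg
Meox2 homeobox: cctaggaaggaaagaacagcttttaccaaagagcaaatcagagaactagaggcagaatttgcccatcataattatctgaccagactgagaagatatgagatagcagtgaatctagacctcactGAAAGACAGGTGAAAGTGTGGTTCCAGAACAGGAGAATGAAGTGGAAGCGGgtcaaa
Shox2 homeobox: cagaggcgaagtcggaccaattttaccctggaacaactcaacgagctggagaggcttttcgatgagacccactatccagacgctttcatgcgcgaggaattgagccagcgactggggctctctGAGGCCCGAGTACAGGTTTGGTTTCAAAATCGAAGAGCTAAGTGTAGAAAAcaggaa
Position by position, Barx1 and Meox2 had 91 of the 180 bases in common, Barx1 and Shox2 had 87, and Meox2 and Shox2 had 84. Over the 51 bases of the recognition helix the counts were 34, 30 and 27. The codons of the recognition helix were thus the more alike part of each pair.

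The bases just upstream of 3 genes are shown because Tbx22 and Shox2 were the members with the largest falls over the stages and Hand2 was the most uneven between libraries. The sequences come from RefSeq on GRCm38.p6, are read 5′ to 3′ on the strand of the gene and end at the base before its annotated start. Capitals mark an E-box (CANNTG, a bHLH recognition core) or a TATA box (TATAAA on either strand), and no match of one overlapped the other.
Tbx22, chrX:107667714-107667963, plus strand: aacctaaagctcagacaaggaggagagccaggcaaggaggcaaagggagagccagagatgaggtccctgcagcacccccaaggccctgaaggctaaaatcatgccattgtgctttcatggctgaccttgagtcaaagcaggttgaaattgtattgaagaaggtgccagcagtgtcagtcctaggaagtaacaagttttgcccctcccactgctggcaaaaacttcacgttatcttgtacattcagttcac
Shox2, chr3:66981772-66982021, minus strand: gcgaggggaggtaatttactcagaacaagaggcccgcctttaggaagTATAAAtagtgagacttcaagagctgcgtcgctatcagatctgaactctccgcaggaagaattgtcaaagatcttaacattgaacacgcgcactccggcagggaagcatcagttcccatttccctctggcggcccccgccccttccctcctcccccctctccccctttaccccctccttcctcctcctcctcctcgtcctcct
Hand2, chr8:57320733-57320982, plus strand: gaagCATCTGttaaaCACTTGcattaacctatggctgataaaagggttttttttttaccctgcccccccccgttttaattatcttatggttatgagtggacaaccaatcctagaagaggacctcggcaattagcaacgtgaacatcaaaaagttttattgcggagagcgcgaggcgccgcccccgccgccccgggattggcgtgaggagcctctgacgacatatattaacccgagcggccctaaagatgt
The Hand2 window held 2 E-boxes, which began 246 and 235 bases before the start, and E-boxes were in 66.2% of 32851 upstream windows of 250 bases in the same table. The Shox2 window held TATAAA at 203 bases before the start, and 12.4% of all windows hold it on either strand. The Tbx22 window held neither, and AGGTGT, a T-box core searched on both strands, was in none of the 3 windows against 11.8% of all windows. Tbx22 had 1 CpG in its 250 bases, Shox2 had 11 and Hand2 had 15. Mn1 had no entry.

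Levels are given as CPM (counts scaled to a common library total, with edgeR's TMM factors), and changes as log2 fold changes of the later over the earlier stage with the standard error (SE). A gene was called changed at a Benjamini-Hochberg adjusted p under 0.05 over the 22151 genes in edgeR's quasi-likelihood test. The SE was derived from that test, as the size of the change over the square root of its F statistic. Totals were 21470759 to 69019565 counts per library, and the P0 libraries (21470759 to 41245830) were shallower than those of E13.5 (63652439 to 68401452). All 11 markers of craniofacial mesenchyme were above 3 counts in every library, and their summed level was 2580 to 28100 CPM. The 11 skeletal muscle markers summed to 163 to 700 CPM at E13.5 and E14.5 and to 4400 to 26500 CPM at E16.5 and P0. Replicates 1 and 2 of E14.5 stood apart in 12 Hox genes, which mark tissue behind the jaw arch. These genes summed to 636, 216 and 71.8 CPM in E14.5 replicates 1 to 3, against 0.131 to 93.6 CPM in the other libraries. The same replicates 1 and 2 also had the highest sums of 12 markers of peripheral neurons, 3830 and 2810 CPM, with 1860 CPM in replicate 3. E14.5 replicate 1 had the lowest mesenchyme sum of all libraries (2580 CPM). The 4 Y-linked genes read as a check of sex summed to 0.151 to 0.457 CPM in all E16.5 libraries, E13.5 replicate 1, E15.5 replicate 1 and P0 replicate 2, and to 55.3 to 190 CPM in the rest, so at E16.5 stage and the sex of the pools cannot be told apart.

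Over the 5 stages, Tbx22, Mn1 and Shox2 changed and Barx1, Meox2 and Hand2 did not pass the test. That is 3 of 6 members, where 59.1% of all genes tested were called. The adjusted p over the stages was 0.000487 for Tbx22, 3.52e-05 for Mn1 and 0.000543 for Shox2. It was 0.651 for Barx1, 0.83 for Meox2 and 0.435 for Hand2. From E13.5 to P0 the first 3 genes fell, and in each of them all 3 P0 libraries lay below all 3 E13.5 libraries. Of all genes tested, 26.8% were called lower at P0 than at E13.5, 56.6% were called in either direction, and 28.9% had every P0 library below every E13.5 library. Those that fell are the anterior marker Shox2, Mn1 and the posterior marker Tbx22, while the posterior markers Barx1 and Meox2 had overlapping levels.

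**Figure D1:**
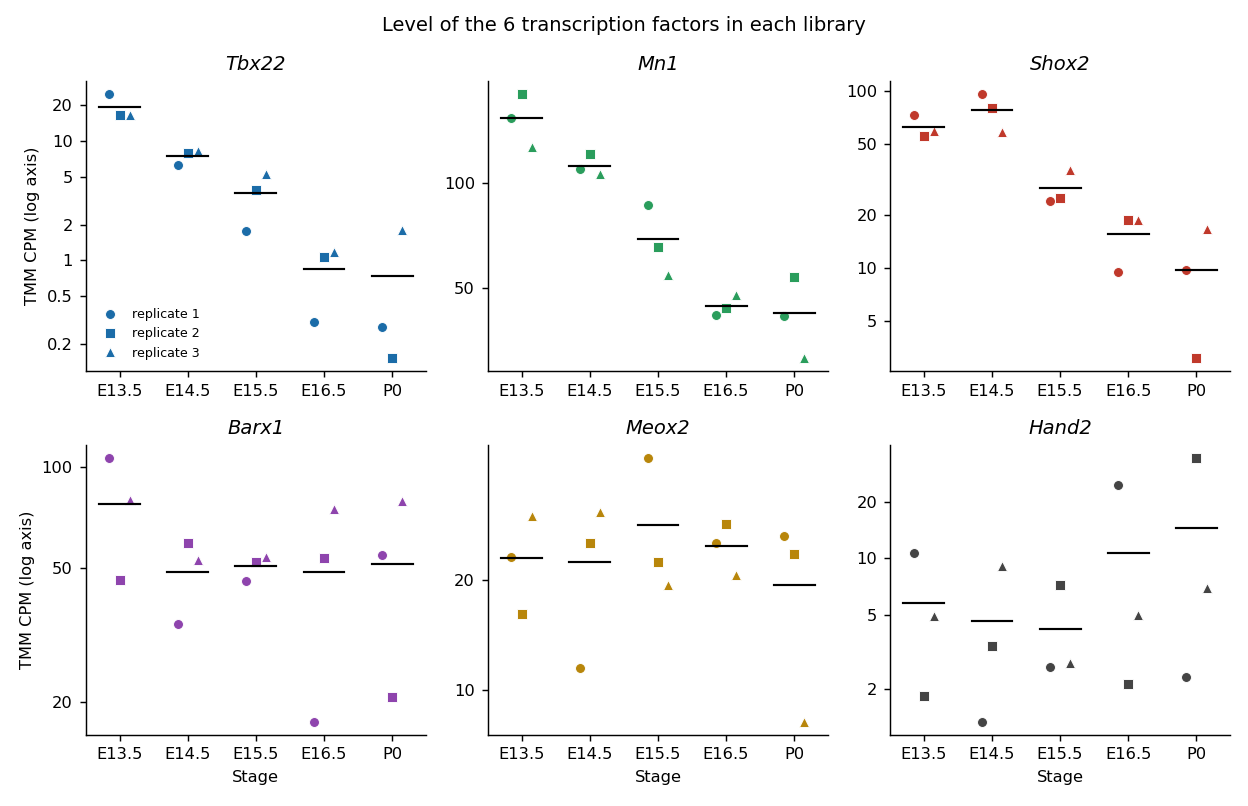
TMM CPM of the 6 genes (log axis) in the 3 libraries of each stage, where symbols give the replicate and the black line the stage mean. Tbx22, Mn1 and Shox2 lie lower at P0 than at E13.5 in every library, while the stages of Barx1, Meox2 and Hand2 overlap.

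Tbx22 (chromosome X, 107667964 to 107688978 on GRCm38, plus strand) had the largest change of the 6. Its level at E13.5 was 24.7, 16.7 and 16.7 CPM in replicates 1, 2 and 3, and at E14.5 it was 6.32, 7.95 and 8.24 CPM. At E15.5 the libraries had 1.75, 3.92 and 5.29 CPM. Every library was thus lower than every library of the stage before. At E16.5 the values were 0.302, 1.08 and 1.17 CPM, and at P0 they were 0.277, 0.152 and 1.785 CPM, so these last stages overlapped. The stage means fell from 19.4 ± 4.64 CPM at E13.5 to 0.738 ± 0.909 CPM at P0 (SD, n = 3). The log2 fold change of P0 over E13.5 was -4.78 (SE 0.81), or 27.4-fold lower, with an adjusted p of 0.000357 in edgeR. The lowest library, P0 replicate 2, still had 5 counts and P0 replicate 1 had 10, so the level at birth rests on few reads. Without one library at a time the change lay between -6.45 and -4.25, and it was called in all 15 such fits.

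The fall of Tbx22 was spread over the steps, and no single step passed the test. The changes were -1.37 (SE 0.68, adjusted p = 0.349 in edgeR) to E14.5, -1.04 (SE 0.68, adjusted p = 0.274) to E15.5 and -2.11 (SE 0.72, adjusted p = 0.127) to E16.5. The step to E16.5 was called by DESeq2 (-2.09, adjusted p = 0.0331), and in edgeR without P0 replicate 3 (-2.11, adjusted p = 0.0383). From E16.5 to P0 the change was -0.26 (SE 0.75). Tbx22 is X-linked, and the 6 pools with little RNA of Y-linked genes were the 3 of E16.5, E13.5 replicate 1 (the highest Tbx22 library), E15.5 replicate 1 and P0 replicate 2 (the lowest). The part of sex in its level was not tested.

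Mn1 (chromosome 5, 111417362 to 111457033, plus strand) was the most even of the 6 between libraries of a stage. It had 154.2, 180 and 126.6 CPM at E13.5 and 109.8, 121.2 and 106.2 CPM at E14.5. At E15.5 it had 86.5, 65.7 and 54.7 CPM. Each of these stages lay wholly below the one before. At E16.5 the level was 41.8, 44.0 and 47.6 CPM and at P0 it was 41.7, 53.9 and 31.5 CPM, with overlap. The stage mean was 153.6 ± 26.7 CPM at E13.5 and 42.4 ± 11.2 CPM at P0 (SD, n = 3). The log2 fold change of P0 over E13.5 was -1.86 (SE 0.21), 3.62-fold lower, with an adjusted p of 2.2e-05 in edgeR. Its fall was thus smaller in size, and surer against its standard error, than that of Tbx22.

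Shox2 (chromosome 3, 66971727 to 66981771, minus strand) did not fall at once. At E13.5 its libraries had 73.1, 55.5 and 59.4 CPM, and at E14.5 they had 95.6, 79.5 and 58.6 CPM, which overlapped. At E15.5 the values were 23.75, 24.8 and 35.9 CPM. All E15.5 libraries were below all earlier ones. At E16.5 Shox2 had 9.45, 18.65 and 18.64 CPM, and at P0 9.74, 3.11 and 16.6 CPM. The last stages overlapped each other, and both lay below E15.5. The log2 fold change of P0 over E13.5 was -2.68 (SE 0.47), 6.41-fold lower, with an adjusted p of 0.000482 in edgeR. Shox2 overlaps the gene Rsrc1 on the opposite strand over 153 exonic bases, and the table was counted by strand.

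Between E14.5 and E15.5, Mn1 and Shox2 fell, and this was the one neighbouring step at which any member passed the test. The change was -0.7 (SE 0.2, adjusted p = 0.0241 in edgeR) for Mn1 and -1.47 (SE 0.45, adjusted p = 0.0314) for Shox2. At this step 26.1% of all genes were called, 13.4% as lower, and 2 of 6 members were. For Tbx22, Mn1 and Shox2 all E15.5 libraries lay below all E14.5 libraries, as for 27.2% of all genes. These 2 calls were near the threshold and rested on single libraries. Neither was called without E14.5 replicate 1, E14.5 replicate 2, E15.5 replicate 2 or E15.5 replicate 3, where adjusted p values were 0.0676 to 0.1 for Mn1 and 0.0558 to 0.115 for Shox2. Without E15.5 replicate 1 the Shox2 change had an adjusted p of 0.0802, and with upper-quartile normalization 0.0517. Without the library of highest Hox level in each stage, an alternative added after seeing the data, the changes were -0.65 for Mn1 (adjusted p = 0.209) and -1.17 for Shox2 (adjusted p = 0.0979), and all genes called fell from 5773 to 354. E14.5 replicates 1 and 2 held the most Hox RNA and the most RNA of neuronal markers of all libraries, and the part of either in this step was not tested.

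No member was called at the other neighbouring steps in edgeR. For E14.5 against E13.5, 0.00903% of all genes were called and 1 member (Mn1) had an unadjusted p under 0.05. DESeq2 called 0 members there, and 1000 genes in all. For E16.5 against E15.5, 1.41% of all genes were called and 2 members had an unadjusted p under 0.05, Tbx22 and Mn1. DESeq2 called 1 member there, Tbx22, and 2056 genes in all against 312 in edgeR. For P0 against E16.5, 0.352% of all genes were called, and no member had an unadjusted p under 0.05. DESeq2 called no member there, and 667 genes in all. The share of all genes at an unadjusted p under 0.05 was not taken, so those member counts have no background beside them. Levels did separate at the steps to E14.5 and to E16.5 without a call. All 3 libraries were lower than all 3 of the stage before for 2 of 6 members at E14.5 (13.7% of all genes) and for 3 of 6 at E16.5 (15.5% of all genes).

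**Figure D2:**
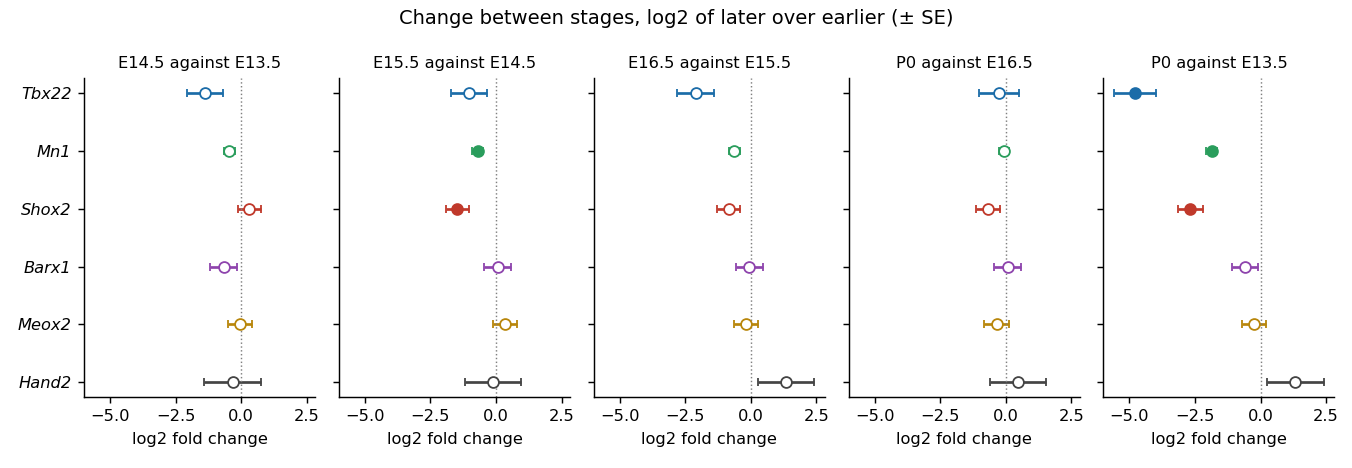
Log2 fold change of each gene (x axis, later over earlier stage, bars ± SE) for the 4 neighbouring steps and for P0 against E13.5, filled where the adjusted p was under 0.05. Filled points are Mn1 and Shox2 at E15.5 and Tbx22, Mn1 and Shox2 at P0 against E13.5, all below 0.

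Wider contrasts give the order of the levels. E16.5 was below E13.5, E16.5 below E14.5 and P0 below E14.5 in all of Tbx22, Mn1 and Shox2, where 23%, 22.8% and 27.9% of all genes were called lower. For P0 against E14.5 the log2 fold change was -3.41 (SE 0.77) for Tbx22, -1.41 (SE 0.21) for Mn1 and -3.0 (SE 0.48) for Shox2. Each of these calls held in all 15 fits without one library. Without the library of highest Hox level in each stage, the Tbx22 call for E16.5 against E14.5 was lost (-2.81, adjusted p = 0.0549). Those that start from or end at E15.5 were less firm. For E15.5 against E13.5, 2 of 6 members were called lower against 9.18% of all genes, Mn1 (-1.16, SE 0.2) and Tbx22 (-2.4, SE 0.71). The Tbx22 call was lost without E13.5 replicate 1, E13.5 replicate 2 or any E15.5 library, with adjusted p values of 0.0506 to 0.084. Shox2 had -1.16 there with an adjusted p of 0.0798, and it was called without P0 replicate 2 (adjusted p = 0.02) or P0 replicate 3 (0.0441). It was also called by DESeq2 (adjusted p = 0.041), in edgeR on only the 6 libraries (0.0106) and without the libraries of highest muscle level (0.0188). For P0 against E15.5, Tbx22, Mn1 and Shox2 were called lower against 10.8% of all genes, with changes of -2.37, -0.7 and -1.53. Tbx22 lost that call in 6 of 15 fits (adjusted p up to 0.114, without E13.5 replicate 1, E14.5 replicate 2, E15.5 replicates 2 or 3, or P0 replicates 1 or 2). Mn1 lost it without E15.5 replicates 1 or 2 or P0 replicates 1 or 3 (up to 0.11), and Shox2 without any E15.5 library or P0 replicate 1 (up to 0.097). Without the library of highest Hox level in each stage none of these contrasts with E15.5 was called for Tbx22 (adjusted p = 0.133 and 0.191) or Mn1 (0.0619 and 0.0737), nor was the P0 contrast for Shox2 (0.0624). The fit of only the 6 libraries of P0 and E15.5 called none of the 3 (adjusted p = 0.152, 0.12 and 0.131). In the order of stage means, Mn1 at E14.5 and E15.5 were the only neighbours of any member that passed the test.

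Of the 11 muscle markers 8 rose from E13.5 to P0 and none fell, where 29.8% of all genes were called higher. Their median log2 change was 4.65. Within a stage the richest library in muscle RNA was often low in Tbx22 and Shox2. The library of highest summed muscle level had the lowest Tbx22 and the lowest Shox2 of its stage in 4 of 5 stages each. It had the lowest Mn1 in 3 stages and the highest Mn1 in the other 2, E15.5 and P0. At E16.5 this was replicate 1 (26500 CPM of muscle markers, Tbx22 0.302 CPM and Shox2 9.45 CPM), and at P0 it was replicate 2 (25800 CPM, Tbx22 0.152 CPM and Shox2 3.11 CPM). Muscle was not the only list to match in 4 of 5 stages. The library richest in endothelial markers had the lowest Shox2 in 4, and that richest in oral epithelium markers had the highest Tbx22 in 4. With 3 libraries per stage, matches also arise by chance, and how often was not taken. Leaving out the library of highest muscle level in each stage, an alternative added after seeing the data, gave P0 over E13.5 changes of -4.46 for Tbx22 (adjusted p = 0.00163), -2.24 for Mn1 (adjusted p = 0.000204) and -2.36 for Shox2 (adjusted p = 0.000512). Leaving out the library of highest Hox level gave -4.03, -2.04 and -2.1 (adjusted p = 0.00952, 0.00229 and 0.00301). The 3 calls held in both fits. In the fit by muscle level, the libraries kept still differed, with 163 and 213 CPM of muscle markers at E13.5 (replicates 1 and 2) and 20900 and 4400 CPM at P0 (replicates 1 and 3). That fit thus cannot separate these falls from muscle content, and the part of muscle in them was not tested.

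Other markers of the shelf tissue moved over the same stages. Of the 11 markers of craniofacial mesenchyme, the factors Prrx1, Prrx2, Twist1, Twist2, Osr1 and Osr2 and the receptor Pdgfra fell from E13.5 to P0, while the collagens Col1a2 and Col3a1 rose. The median log2 change of that list was -1.1, beside 0.03 over all genes, of which 26.8% were called lower and 29.8% higher. Of 9 osteoblast markers, 7 rose, and their summed level was 113 to 213 CPM at E13.5 and 1300 to 2470 CPM at P0. Of 9 markers of oral epithelium, 5 rose, from a sum of 295 to 650 CPM to one of 1040 to 3370 CPM. The part of these shifts in the makeup of the tissue in the levels of Tbx22, Mn1 and Shox2 was not tested.

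Barx1 (chromosome 13, 48662998 to 48666507, plus strand) had stage means that differed little beside the spread between libraries at most stages. It had 106.3, 46.2 and 79.4 CPM at E13.5, 34.0, 59.2 and 52.9 CPM at E14.5, and 45.8, 52.1 and 54.0 CPM at E15.5. At E16.5 it had 17.5, 53.5 and 75.0 CPM, and at P0 54.8, 20.7 and 78.9 CPM. The stages overlapped throughout. Its highest stage mean was 1.59-fold its lowest, while the 3 libraries of a stage ranged from 1.18-fold at E15.5 to 4.30-fold at E16.5. The log2 fold change of P0 over E13.5 was -0.59 (SE 0.51, adjusted p = 0.344 in edgeR), and -1.02 without P0 replicate 3. The library richest in muscle RNA had the lowest Barx1 of its stage in 3 of 5 stages, including E16.5 replicate 1 and P0 replicate 2, and the part of this in its spread was not tested.

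Meox2 (chromosome 12, 37108540 to 37179534, plus strand), whose loss in mice gives a cleft that opens after contact of the shelves, was the flattest of the 6. It had 23.2, 16.1 and 30.02 CPM at E13.5, 11.51, 25.3 and 30.7 CPM at E14.5, and 43.4, 22.5 and 19.4 CPM at E15.5. At E16.5 it had 25.3, 28.5 and 20.75 CPM and at P0 26.5, 23.6 and 8.19 CPM. No stage was set apart from another. The stage means differed by at most 1.46-fold, and the log2 fold change of P0 over E13.5 was -0.25 (SE 0.46, adjusted p = 0.663 in edgeR). The sign was not fixed: without P0 replicate 3, the library with 8.19 CPM, the change was 0.14, and without any other single library it was -0.49 at the lowest.

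Hand2 (chromosome 8, 57320983 to 57324633, plus strand) showed no change with stage that passed the test and a large spread within every stage. It had 10.6, 1.845 and 4.90 CPM at E13.5, 1.34, 3.41 and 9.04 CPM at E14.5, and 2.61, 7.23 and 2.76 CPM at E15.5. At E16.5 it had 24.7, 2.13 and 4.99 CPM, and at P0 2.33, 34.4 and 6.92 CPM. The highest library of a stage was between 2.77-fold (E15.5) and 14.8-fold (P0) the lowest. The log2 fold change of P0 over E13.5 was 1.33 (SE 1.08, adjusted p = 0.309 in edgeR). It was -0.31 without P0 replicate 2 and 2.1 without E13.5 replicate 1. Without the library of highest muscle level in each stage it was -0.51 and without that of highest Hox level 0.48. The pooled standard deviation of log2 CPM within stages was 1.49 for Hand2, larger than that of 98.0% of tested genes. It was 0.98 for Tbx22 (larger than 92.7%), 0.74 for Barx1 (84.1%), 0.65 for Shox2 (78.3%), 0.64 for Meox2 (77.9%) and 0.26 for Mn1 (35.7%), with a median of 0.35 over all genes.

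Genes beside Hand2 on the chromosome were among those most like it over the libraries. They were picked by that likeness, and neighbours on the chromosome were not tested as a group. Likeness was measured as the root mean square difference of log2 CPM over the 15 libraries after centring each gene on its own mean, among 16507 genes with a mean of at least 1 CPM. The nearest was Hand2os1 at 0.22, a non-coding RNA gene on the opposite strand (bases 57281117 to 57324233) whose exons cover all 250 upstream bases printed above and 461 of the 2351 exonic bases of Hand2. The next was 5033428I22Rik at 0.58, a lincRNA gene on the same strand (bases 57332118 to 57354580) that begins 7484 bases past the end of Hand2. It had only 6 to 208 counts per library. Then came Gata6 at 0.85, a zinc-finger factor of heart and endoderm. Hand2os1 had 10.75 CPM in E16.5 replicate 1 and 13.1 CPM in P0 replicate 2, the libraries where Hand2 was 24.7 and 34.4 CPM, and 0.4985 CPM in E14.5 replicate 1, where Hand2 was 1.34 CPM. The ratio of Hand2 to Hand2os1 counts stayed between 1.72 and 2.82 (median 2.15) over a 25.7-fold range of Hand2. The table was counted by strand, and how much of Hand2os1 was read from the wrong strand of Hand2 was not tested.

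**Figure D3:**
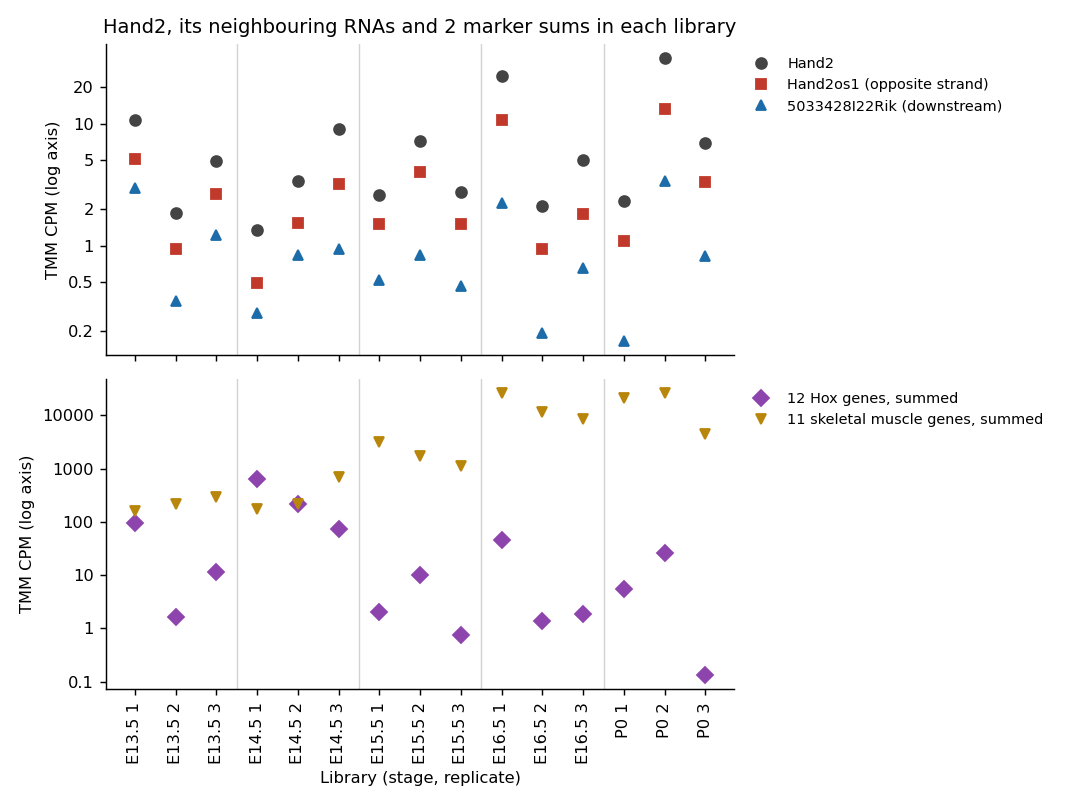
Upper panel, TMM CPM (log axis) of Hand2, Hand2os1 and 5033428I22Rik in each of the 15 libraries. Lower panel, summed TMM CPM (log axis) of 12 Hox genes and 11 skeletal muscle genes in the same libraries. All 3 RNAs of the locus are highest in P0 replicate 2, and Hand2 is lowest in E14.5 replicate 1, where the Hox sum is highest.

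For some marker lists the richest library of a stage was often the one with the highest or the lowest Hand2. In 4 of 5 stages the library with the most Hand2 was also the one with the most Hox RNA: E13.5 replicate 1 (93.6 CPM), E15.5 replicate 2 (10.1 CPM), E16.5 replicate 1 (45.5 CPM) and P0 replicate 2 (26.1 CPM). At E14.5 the order was opposite, with the least Hand2 in the library with 636 CPM of Hox RNA. The library of highest Hand2 was also the highest in the 8 endothelial markers in 4 of 5 stages, in the 8 erythroid markers found in the table in 4 of 5 and in muscle markers in 3 of 5. The 12 neuronal markers summed to 877 to 3830 CPM, and the library richest in them had the lowest Hand2 of its stage in 5 of 5 stages. Other lists matched less: the library richest in oral epithelium or osteoblast markers had the highest Hand2 in 1 of 5 stages each. Such matches were not particular to Hand2. The library richest in brain markers had the lowest Meox2 in 5 of 5 stages, and that richest in epithelium the lowest Mn1 in 4 of 5. With 3 libraries per stage, matches also arise by chance, and how often was not taken. The part of these tissues in the level of Hand2 was not tested.

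Levels of different genes were compared as CPM per kb of exon length. Barx1 had the highest mean of the 6 at every stage, with 55.2 ± 21.5 at E13.5 and 36.8 ± 20.9 at P0 (SD, n = 3, all in CPM per kb). Next at E13.5 were Mn1 (22.1 ± 3.845) and Shox2 (18.9 ± 2.795). At E14.5 these means were in the other order, 16.2 ± 1.13 for Mn1 and 23.5 ± 5.6 for Shox2. Meox2 came after these at E13.5 (9.79 ± 2.94) and was next to Barx1 at P0 (8.24 ± 4.18), where Mn1 and Shox2 had 6.10 ± 1.61 and 2.96 ± 2.04. Tbx22 was above Hand2 at E13.5, with 3.49 ± 0.836 against 2.465 ± 1.90, and lowest at every later stage, with 0.133 ± 0.164 at P0. At P0 Hand2 had 6.19 ± 7.38, just above Mn1 on TMM values (6.193 against 6.104) and just below it with upper-quartile normalization (6.275 against 6.282). Levels between genes were not tested, and neighbours such as Mn1 and Shox2 at E13.5 lie within their SD.

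**Figure D4:**
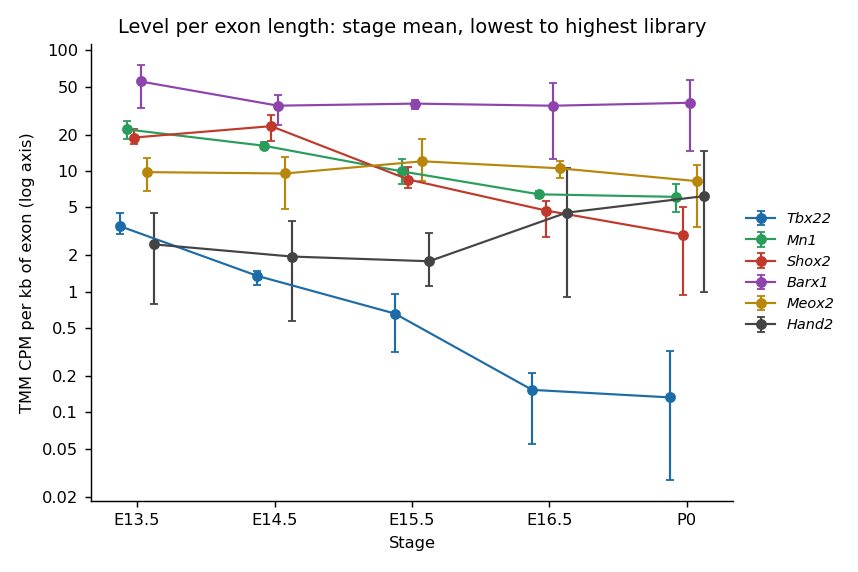
Stage mean of TMM CPM per kb of exon (log axis) for the 6 genes, with bars from the lowest to the highest of 3 libraries. Barx1 is highest at each stage, Tbx22 is lowest from E14.5 on, and Mn1 and Shox2 pass below Meox2 by E15.5.

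The ratio of the anterior marker Shox2 to the posterior marker Barx1, both per kb, was lowest at birth, where it was also steadier than either gene. It was 0.291, 0.508 and 0.316 in replicates 1, 2 and 3 at E13.5 and 1.19, 0.568 and 0.468 at E14.5. At E15.5 it was 0.219, 0.201 and 0.281, and at E16.5 0.229, 0.147 and 0.105. At P0 it was 0.075, 0.0636 and 0.0888, below every earlier library. The P0 libraries differed 5.33-fold in Shox2 and 3.82-fold in Barx1, yet both genes were lowest in replicate 2 and highest in replicate 3. Shox2 was above Barx1 per kb in 1 library, E14.5 replicate 1, which also had the highest Hox sum. Ratios of Shox2 to the other posterior markers, also per kb, went differently. Shox2 over Tbx22 was 4.95, 5.57 and 5.96 at E13.5 and 58.8, 34.2 and 15.6 at P0, so it was higher at birth. Shox2 over Meox2 was 2.25, 2.45 and 1.41 at E13.5 and 0.261, 0.0939 and 1.44 at P0, with overlap. These ratios are descriptions and were not tested.

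**Figure D5:**
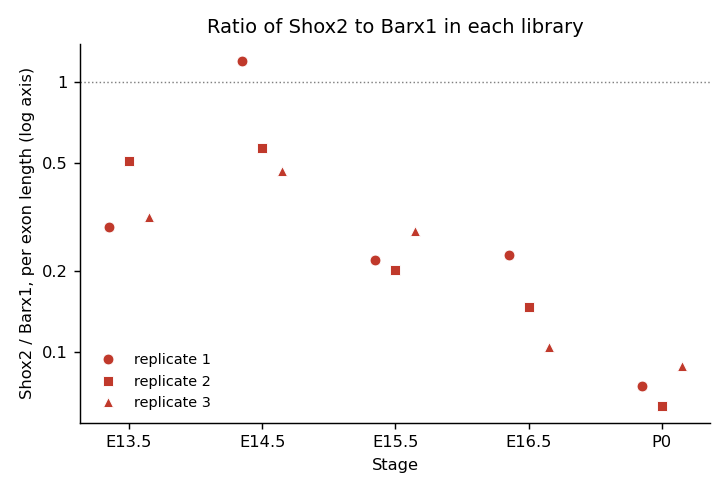
Ratio of Shox2 to Barx1 in each library (log axis, both per kb of exon, dotted line at 1), by stage, with symbols for the replicate. The P0 libraries lie at 0.0636 to 0.0888, below all others.

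For the other 5 genes the nearest patterns were as follows, among the same 16507 genes. Nearest to Tbx22 were Hmga2 (0.5), an architectural chromatin protein of fetal tissue, Alx1 (0.67), a homeodomain factor of facial mesenchyme, and Hpse2 (0.72), a heparanase-like protein. Hmga2 had mean levels of 275, 110, 42.7, 18.8 and 11.2 CPM over the 5 stages. Nearest to Mn1 were Tut4 (0.21), an RNA uridyl transferase that acts on let-7 precursors, Greb1l (0.23) and Zfp334 (0.23). Nearest to Shox2 were the long non-coding RNA 2900060N12Rik (0.33), Mab21l2 (0.4), which like Shox2 had its highest mean at E14.5 (238 CPM, against 140 CPM at E13.5 and 20.2 CPM at P0), and Rimklb (0.42). Nearest to Barx1 were Gli1 (0.35), a target and effector of hedgehog signalling, Ror2 (0.36), a receptor for Wnt5a, and Frzb (0.38), a secreted Wnt antagonist. Nearest to Meox2 were the protease Adamts15 (0.22), the growth factor Fgf18 (0.26) and Gfpt2 (0.29). With stage means in place of the 15 libraries, 2 of 3 nearest genes were shared for Tbx22 and 0 of 3 for each of the other 5.

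Genes around the 6 factors were read from fixed lists, each set against a median log2 fold change of 0.03 over all genes for P0 against E13.5. Of 15 genes of hedgehog, BMP, FGF and Wnt signalling in the shelves, 2 rose and 2 fell. That is 4 of 15, where 56.6% of all genes were called, 29.8% as higher and 26.8% as lower. Wnt5a, a ligand that guides movement of mesenchyme in the shelf, fell by 1.66 (SE 0.38, adjusted p = 0.00283 in edgeR), from 118.1 ± 43.0 to 37.4 ± 13.5 CPM (SD, n = 3). Fgf7 rose by 1.41 (SE 0.43, adjusted p = 0.0133), from 4.135 ± 1.74 to 10.96 ± 1.64 CPM. The others called were Spry1, an FGF feedback inhibitor (1.04), and Fgf10 (-1.14). The count lower was 1 without P0 replicate 1, 4 without E13.5 replicate 2 and 5 without P0 replicate 3, and the count higher was 1 without E13.5 replicate 2.

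Of 23 other transcription factors whose loss gives a cleft in mice, 11 fell from E13.5 to P0 and 1 rose, and the median of the list was -1.38. The 11 were Osr2, Tbx3, Sox9, Lhx8, Gli2, Gli3, Prrx1, Prdm16, Meis2, Sox5 and Sox11. The largest changes were those of Sox11 (-2.98, SE 0.67, adjusted p = 0.00228 in edgeR), from 484.3 ± 262.0 to 61.5 ± 57.7 CPM, and Sox5 (-2.9, SE 0.38, adjusted p = 5.71e-05), from 51.2 ± 6.67 to 6.84 ± 2.95 CPM. The gene that rose, Tbx1 (1.29), had an adjusted p of 0.0446 and lost its call in 11 of 15 fits without one library. The share lower in this list, 11 of 23, stands beside 26.8% of all genes called lower, and leaving out one library gave 9 to 13. A further 29.8% of all genes were called higher. At the step from E14.5 to E15.5, 4 of the 23 fell (Prdm16, Meis2, Sox5 and Sox11) and none rose, where 13.4% of all genes were called lower. With E14.5 replicate 1 left out 1 fell, with E14.5 replicate 2 or any E15.5 library left out 2 fell, and 0 fell without the library of highest Hox level in each stage.

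Of 11 endothelin and Dlx pathway genes of the jaw arch, not all of which act upstream of Hand2, 3 rose and 3 fell. That is 6 of 11, where 56.6% of all genes were called in either direction. Dlx1 had -2.54 (SE 0.62, adjusted p = 0.00412 in edgeR), from 72.0 ± 42.1 to 12.5 ± 9.05 CPM, and Gsc, a homeodomain factor of the lower jaw, had -1.77 (SE 0.48, adjusted p = 0.00752). The receptor Ednra also fell (-1.23), while the ligand Edn1 (1.53), the converting enzyme Ece1 (0.9) and Mef2c (1.32), a factor also of muscle and endothelium, rose. Endothelial markers summed to 353 to 470 CPM at E13.5 and 545 to 780 CPM at P0, and muscle markers rose as given above, and their part in the rises of Edn1, Ece1 and Mef2c was not tested. Of 19 family relatives of the 6 genes, 3 rose and 4 fell, which is 7 of 19 beside 56.6% of all genes. Tbx18 had -2.38 (SE 0.61, adjusted p = 0.00562) and Barx2, an epithelial and muscle relative of Barx1, had 1.5 (SE 0.4, adjusted p = 0.00718). Tbx1 and Meox1, the relative of Meox2 found in somites, rose with adjusted p values of 0.0446 and 0.0457, and the list had 1 rise in 8 of 15 fits without one library and 0 without the libraries of highest Hox level. The T-box genes Tbx3, T and Mga fell, where T had only 0.802 CPM at E13.5 and 0.384 CPM at P0 (adjusted p = 0.0472 in edgeR). The count lower was 3 to 5 with one library left out, 3 with upper-quartile normalization and 7 with DESeq2. Hand1, the closest relative of Hand2, had 0.0193 CPM at E13.5 and 4.22 CPM at P0 on average, with an adjusted p of 0.0715. Tbx3 and Tbx1 also stand in the list of cleft factors.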

How the data were processed

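The members and the gene lists were chosen with earlier results of these data known. The authors deposited a table of read-pair counts per gene, made with featureCounts 2.0.1 against GENCODE M18 and counted on the reverse strand, per the file headers, and HISAT2 2.2.1, cutadapt 3.4 and mm10 are named in the submitters' processing notes. The table's exon lengths, in bases, were used for CPM per kb. Symbols and positions were matched from GENCODE M21, and 97.7% of the 54079 matched genes had the same position there. Totals of 21470759 to 69019565 counts put 3 counts at 0.0421 to 0.131 CPM.

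Genes were kept with edgeR's filterByExpr (minimum count 10). The fit of all 15 libraries gave every stage its own coefficient and used TMM factors and the quasi-likelihood test of edgeR (version 4.0.16, R version 4.3.3), and p-values were adjusted by the Benjamini-Hochberg method over 22151 genes. A stage is 3 pools, and nothing in the labels says that these came from separate litters, so p-values measure only the spread between these samples. Log2 CPM used a prior count of 2. The scripts were tested on simulated data.

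Besides the 6 members, the naming rule took the 3 nearest genes of each and, from each of 4 lists, the 2 genes with the largest changes among those called at P0 against E13.5. The other called genes of the lists and the mesenchyme markers were named after their values were seen. Alternatives were DESeq2 1.42.0 and its size factors, upper-quartile normalization, no filter or a mean of at least 1 CPM, only the libraries of a contrast, a replicate block, another prior count and each library left out. Leaving out the library of highest Hox or highest muscle level in each stage was added after seeing the data.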

Additional observations from a re-analysis of the deposited data

How the results depend on the processing

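No result turned in direction past the threshold. The number of the 6 genes called for E15.5 against E14.5 was 1 after scaling by upper quartiles, where the median change of all genes was 0.161 and not 0.03, and 0 to 2 with one library left out. It was 0 without the library of highest Hox level in each stage, an alternative chosen after seeing the data. For E16.5 against E15.5 the number was 1 with DESeq2 and 0 to 1 with one library left out. With the replicate block, 3 of the 6 genes were called over the stages, 2 at E15.5 against E14.5 and 3 at P0 against E13.5, as without it. The labels do not say that the numbers pair the libraries, and correlations of the libraries do not settle it. Of same-numbered pairs, 9 of 30 correlated above 0.1 (range -0.303 to 0.548, mean 0.0594). Of the libraries, 7 of 15 correlated best with one of their own number.

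Over all genes, DESeq2 called 1000, 2056 and 667 genes against 2, 312 and 78 in edgeR for E14.5 over E13.5, E16.5 over E15.5 and P0 over E16.5. Fits of only the 6 libraries of a contrast called 0 in each, and 1809 against 5080 for P0 over E15.5. The block called 135 against 2 for E14.5 over E13.5 and 35 against 78 for P0 over E16.5. Without a filter the counts there were 6 and 25, and a mean of at least 1 CPM left 1 at the first. Without the libraries of highest Hox level 6409 genes were called over the stages against 13081, and for the 4 neighbouring steps 0, 354, 0 and 0. The same fit called 1117 of 5078 for E15.5 over E13.5, 5137 of 10678 for E16.5 over E13.5, 3374 of 10231 for E16.5 over E14.5 and 1094 of 5080 for P0 over E15.5. Without those of highest muscle level 0 were called for E16.5 over E15.5 and 120 for P0 over E16.5.

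Depth limits Tbx22 most, with 5 counts in its lowest library, while the lowest counts of the other 5 genes were 77 to 724. In bulk tissue, a change along the shelf and a change in its makeup cannot be told apart.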
